A study of Mus musculus with 6 samples.

Results

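The 37 genes described here encode the working parts of the lysosome. Among them are 13 cathepsins and other lysosomal peptidases, 9 glycosidases, and 5 lipid hydrolases and their activator proteins. The rest encode 4 membrane proteins, 3 subunits of the proton pump and 3 transcription factors of the TFEB family. The 37 genes were taken by gene symbol from a table of 21929 mouse genes. Each symbol stood on 1 row, and all 37 were found. The RNA came from L929 cells, a mouse fibroblast line, that had been kept in co-culture. Per the labels, the 3 Biotin-positive libraries hold L929 cells that had interacted with MFCSTCL, a name the labels do not explain. The 3 Biotin-negative libraries hold L929 cells labelled as not having interacted with tumour cells. Both groups went through the co-culture and carry the same batch entry, no genotype or drug is named for either, and no library was taken before contact. Separate cultures are not recorded for the libraries within a group. The p-values therefore refer to library-to-library spread alone, and that spread may be technical.

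The lysosome is the acidic compartment in which cells break down proteins, sugars and lipids. Its hydrolases are made in the secretory pathway, tagged with mannose 6-phosphate, and delivered by receptors, and a proton-pumping ATPase in the lysosomal membrane keeps the interior acidic. TFEB, TFE3 and MITF can switch on many of these genes together through a DNA element with the core CACGTG. Fibroblasts also use lysosomal proteases in the turnover of the collagen they take up.

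Lysosomal transcripts were mostly lower in Biotin-positive cells. Of the 35 genes that could be tested, 21 were lower, 8 were higher and 6 did not pass (limma, Benjamini-Hochberg adjusted p under 0.05 over all genes). Passing was common in these data, since 73.9% of the 11029 tested genes passed, against 82.9% of the lysosomal ones. The direction differed more. Lower calls made up 60.0% of the tested lysosomal genes and 36.1% of all tested genes, and higher calls 22.9% and 37.8%. The median log2 difference was -0.42 for the lysosomal genes and 0.01 for all tested genes. Ctsc reached the minimum for testing only through the Biotin-positive libraries, so its call was fixed by that minimum. Without it 21 of 34 genes were lower, or 61.8%, and 7 were higher, or 20.6%; 82.4% were called, and the median was -0.44. Ctsf and Ctss stayed under the minimum of 1 FPKM, fragments scaled to gene length and library size, the unit of the table. The groups did not overlap for 21 tested genes on the lower side and 8 on the higher side, or 7 without Ctsc. Of all tested genes 37.8% and 39.1% had such gaps, or 76.9% in either direction.

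Added up, the 37 genes held 2012.0, 1980.2 and 1967.5 FPKM in the Biotin-positive libraries, against 2517.1, 2462.4 and 2498.1 FPKM in the Biotin-negative ones. Their share of a library's summed FPKM lay between 0.555 and 0.564% in Biotin-positive and between 0.729 and 0.739% in Biotin-negative cells. A pool of 6 genes, Lamp1, Psap, Ctsl, Ctsd, Ctsz and Ctsb, carried 63.6% of the lysosomal FPKM in Biotin-positive and 63.9% in Biotin-negative cells. In bulk RNA, fewer cells with a transcript and less of it per cell cannot be told apart.

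**Figure D1:**
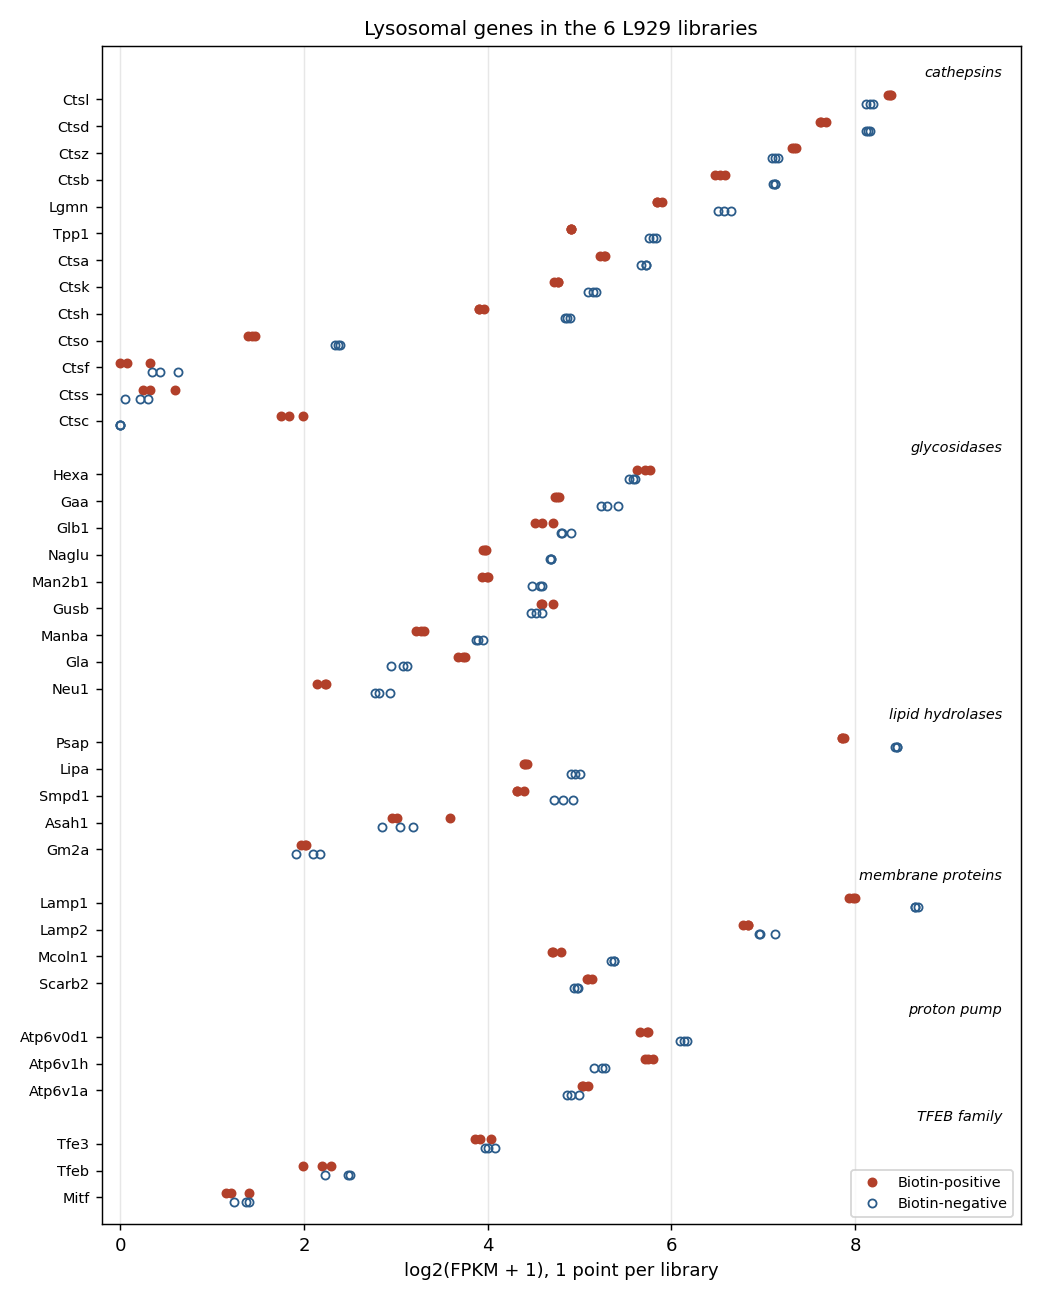
Level of each of the 37 lysosomal genes as log2(FPKM + 1), with 1 point per library (filled, Biotin-positive; open, Biotin-negative), grouped by class and sorted by the Biotin-negative mean. Most filled points lie left of the open ones, while Ctsl, Ctsz, Ctsc, Gla, Hexa, Scarb2, Atp6v1h and Atp6v1a lie to the right without overlap.

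Stretches of DNA before the start sites of lysosomal genes show the CACGTG core. They are shown because 4 of these genes were lower and 1 higher in Biotin-positive cells. Sequences and start sites are those of RefSeq on GRCm38.p6, written in the direction of the gene, with each CACGTG in capitals. Only bases outside the gene as the deposited table bounds it are printed.
Lamp1 (chr8:13159091-13159160, plus strand): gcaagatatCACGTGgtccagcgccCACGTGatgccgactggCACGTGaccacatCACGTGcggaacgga
Glb1 (chr9:114400998-114401057, plus strand): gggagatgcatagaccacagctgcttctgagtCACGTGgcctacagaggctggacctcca
Gaa (chr11:119267793-119267852, plus strand): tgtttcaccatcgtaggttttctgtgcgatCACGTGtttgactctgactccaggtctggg
Mcoln1 (chr8:3500397-3500456, plus strand): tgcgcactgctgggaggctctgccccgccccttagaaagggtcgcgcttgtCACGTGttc
Gla (chrX:134601186-134601255, minus strand): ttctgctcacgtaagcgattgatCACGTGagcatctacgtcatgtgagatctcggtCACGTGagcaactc
The Lamp1 stretch holds 4 copies within 61 bases of the start site, and the Gla stretch holds 2. Mcoln1 has a second copy closer to its start, beyond the stretch shown.

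Promoter windows of 300 bases, from 250 before to 50 after a start site, were at hand for 33 of the 37 genes. CACGTG, which reads the same on both strands, was in the window of 13 of them, or 39.4%. It was in the windows of 8.09% of all 27025 genes in the promoter table and of 12.1% of the 8808 tested genes with a window. Among the lysosomal genes it was found for 9 of the 19 with a window that were lower in Biotin-positive cells, and for 3 of the 7 that were higher. Ctsc, whose call was fixed by the minimum for testing, is among these 7, and its window did not hold the core. The longer TCACGTGA, which contains CACGTG, was in 6 windows, those of Ctsa, Ctsd, Mcoln1, Atp6v0d1, Gla and Atp6v1a, or 18.2%, against 2.36% of the tested genes. The same letters with a G before and a C after them, the longest of the 3 palindromes searched, were in 0 of the 33 windows and in 0.863% of those of the tested genes. For Ctsa and Lgmn, which have more than 1 start site in the table, only 1 of the windows held the core. The letters were thus present before genes that were lower and genes that were higher, and a match is no measure of binding.

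Most cathepsins were lower. Cathepsins are the lysosomal proteases, mostly of the papain type. Of the 11 tested peptidases 8 were lower and 3 higher, or 8 and 2 of 10 without Ctsc. Lower calls thus made up 72.7%, or 80.0% without Ctsc, against 36.1% of all tested genes. Higher calls made up 27.3%, or 20.0% without Ctsc, against 37.8%. Of all tested genes 73.9% were called. Ctsh, an aminopeptidase of the cathepsin family, had 13.98, 14.5 and 13.96 FPKM in Biotin-positive libraries, against 27.6, 28.8 and 28.0 FPKM in Biotin-negative ones. The groups stood far apart, and the Biotin-positive mean was 0.503 times the Biotin-negative one (log2 difference -0.94, SE 0.0374, limma adjusted p = 9.76e-08). Tpp1, tripeptidyl peptidase 1, the enzyme lost in a childhood form of Batten disease, was at 28.98, 29.02 and 28.99 FPKM in Biotin-positive and at 56.0, 53.0 and 54.6 FPKM in Biotin-negative libraries. All 3 Biotin-positive values were well under the lowest Biotin-negative one (log2 difference -0.89, SE 0.0326, limma adjusted p = 6.45e-08). Ctso, a little-studied cysteine cathepsin, averaged 1.70 ± 0.0789 FPKM in Biotin-positive and 4.15 ± 0.0868 FPKM in Biotin-negative cells (SD, n = 3 each), a ratio of 0.408.

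Lgmn encodes legumain, the asparaginyl endopeptidase that also processes other cathepsins to their mature forms. It had 58.7, 56.2 and 56.6 FPKM in Biotin-positive libraries, against 98.9, 90.1 and 93.9 FPKM in Biotin-negative ones. The gap between the groups was many times the spread within them (log2 difference -0.71, SE 0.0398, limma adjusted p = 6.67e-07). Cathepsin B, an abundant endo- and exopeptidase, was lower as well. Ctsb had 94.5, 90.99 and 87.9 FPKM in Biotin-positive libraries and 139, 137 and 139 FPKM in Biotin-negative ones, a ratio of 0.660 (log2 difference -0.60, SE 0.0329, limma adjusted p = 6.25e-07). Ctsd encodes cathepsin D, the main aspartic protease of the lysosome, and had 205, 196 and 195 FPKM in Biotin-positive libraries and 280.1, 276 and 284 FPKM in Biotin-negative ones (log2 difference -0.49, SE 0.0295, limma adjusted p = 1.02e-06). In GENCODE vM21 another gene model on the same strand, Gm49369, overlaps 34.4% of the Ctsd exons, so how reads there were assigned bears on its level. Ctsa, the protective protein that holds β-galactosidase and neuraminidase in a complex, and Ctsk, the collagen-cleaving cathepsin best known from osteoclasts, stood at ratios of 0.726 and 0.758.

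Cathepsin L and cathepsin Z went the other way. Ctsl, the most abundant of the 37 transcripts in Biotin-positive cells, had 332, 328 and 336 FPKM there, against 285, 277 and 292 FPKM in Biotin-negative libraries. Its groups did not overlap, and the ratio was 1.16 (log2 difference 0.22, SE 0.0297, limma adjusted p = 0.000172). A gene model on the opposite strand, Gm47123, overlaps 26.8% of the Ctsl exons, and the strandedness of the counting is not given in the sources used here. Ctsz, a carboxypeptidase also called cathepsin X, had 163, 161 and 157 FPKM in Biotin-positive and 142, 135 and 139 FPKM in Biotin-negative libraries. Its difference was of similar size (log2 difference 0.21, SE 0.0302, limma adjusted p = 0.000272). Because Lamp1 and Psap were lower and Ctsl higher, the order at the top differed between the groups. In Biotin-positive cells it ran Ctsl, Lamp1, Psap, Ctsd and Ctsz, and in Biotin-negative cells Lamp1, Psap, Ctsl, Ctsd and Ctsz. Within the Biotin-negative group Ctsl and Ctsd were close, at 285 ± 7.76 and 280.3 ± 3.95 FPKM. Ctsl was slightly above Ctsd in each of these libraries, and their difference was not tested.

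Ctsc encodes dipeptidyl peptidase 1, which activates the granule proteases of immune cells. It was listed at 2.58, 2.98 and 2.36 FPKM in Biotin-positive libraries and at 0 in each Biotin-negative one. No ratio can be given against a group listed at 0, and since the gene was tested only because of its Biotin-positive values, its call is no evidence of a difference. Ctss, cathepsin S of antigen-presenting cells, and Ctsf stayed near the bottom of the scale in every library. Ctss lay between 0.182 and 0.514 FPKM in Biotin-positive and between 0.0375 and 0.235 FPKM in Biotin-negative cells, and Ctsf between 0 and 0.250 FPKM and between 0.268 and 0.546 FPKM. Immune cells, which are rich in these proteases, were checked through 14 macrophage markers. Of these 11 stayed under 0.23 FPKM in all 6 libraries, among them Ptprc, Adgre1, Csf1r and Itgam. The remaining 3, Cd68, Lyz2 and Cd14, brought the summed level of the list to between 14.9 and 18.1 FPKM in Biotin-positive and between 12.02 and 15.3 FPKM in Biotin-negative libraries. They went different ways: Lyz2 and Cd14 were higher, with ratios of 1.78 and 1.88 and no overlap (limma adjusted p = 0.000231 and 0.000592), while Cd68 was lower with overlapping groups (ratio 0.830, limma adjusted p = 0.0402). Their part in the Ctsc values was not tested.

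**Figure D2:**
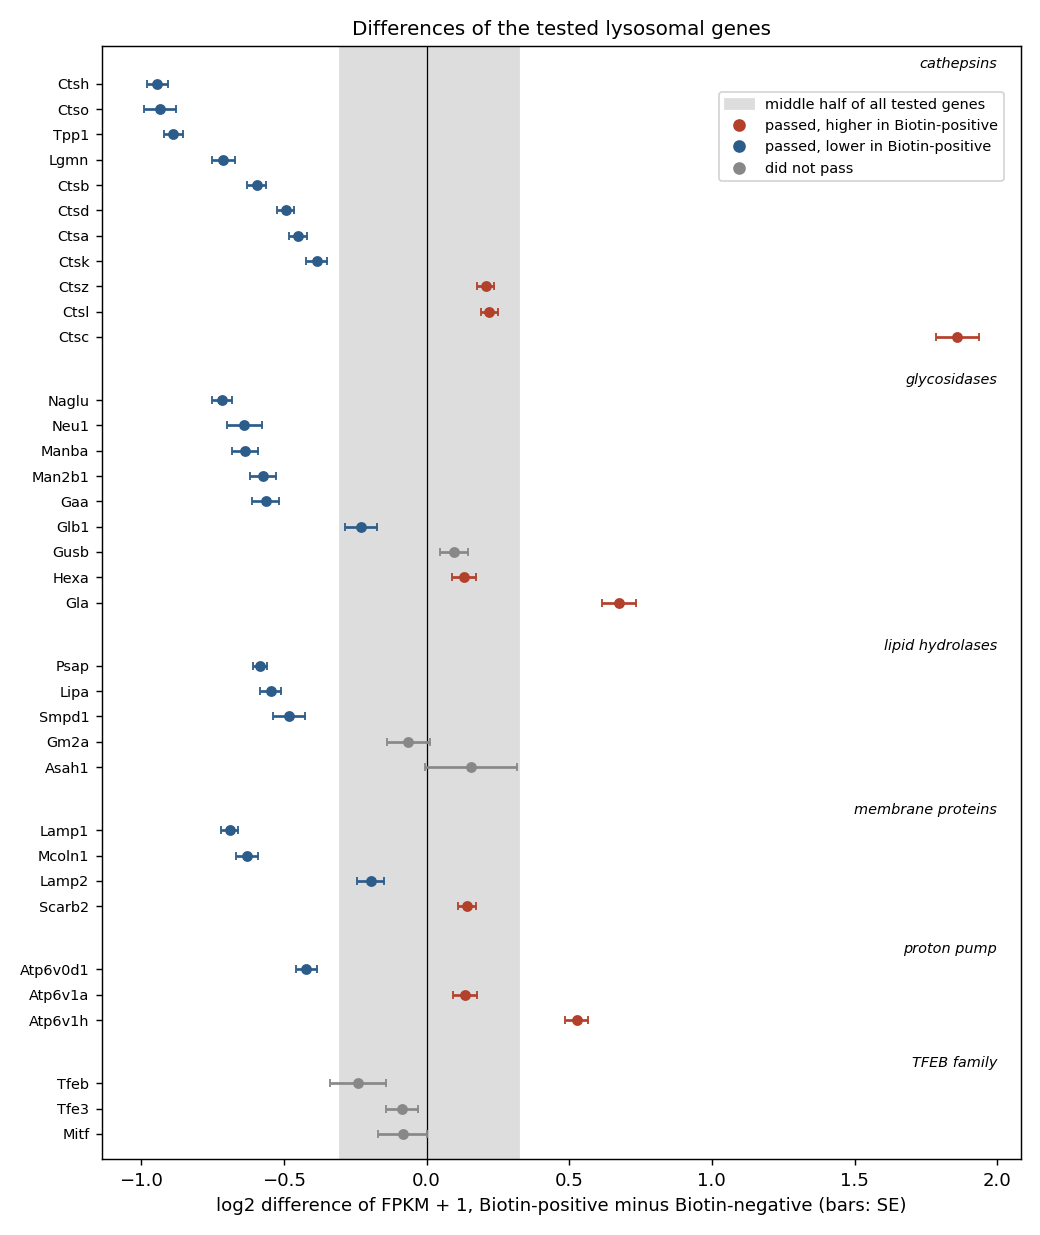
Difference of log2(FPKM + 1), Biotin-positive minus Biotin-negative, for the 35 tested lysosomal genes, with bars for the SE of limma; the grey band runs between the quartiles of all 11029 tested genes, at -0.30 and 0.32. Of the 21 lower genes all but Glb1 and Lamp2 lie left of the band, and Ctsc, Gla and Atp6v1h lie right of it.

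Glycosidases, which trim sugar chains from the ends, were lower in 6 of 9 cases. Lower calls made up 66.7% and higher calls 22.2%, against 36.1% and 37.8% of all tested genes. The share called was 88.9%, against 73.9%. Naglu, which removes N-acetylglucosamine from heparan sulfate, had 14.8, 14.7 and 14.4 FPKM in Biotin-positive libraries, against 24.7, 24.8 and 24.6 FPKM in Biotin-negative ones. The spread within each group was far smaller than the gap (log2 difference -0.72, SE 0.0350, limma adjusted p = 3.14e-07). Neu1, the lysosomal sialidase, was at a ratio of 0.584, and the mannosidases Manba and Man2b1 at 0.618 and 0.658. Gaa, the acid α-glucosidase that degrades glycogen and is deficient in Pompe disease, averaged 26.0 ± 0.349 FPKM in Biotin-positive and 38.99 ± 2.58 FPKM in Biotin-negative cells (SD, n = 3 each). Glb1, the β-galactosidase measured in senescence assays, fell less, with a ratio of 0.849 (log2 difference -0.23, SE 0.0562, limma adjusted p = 0.00552).

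Gla was the glycosidase with the clearest rise. It encodes α-galactosidase A, the enzyme deficient in Fabry disease. Its values were 12.5, 12.2 and 11.8 FPKM in Biotin-positive and 7.68, 6.68 and 7.44 FPKM in Biotin-negative libraries. The lowest Biotin-positive library was far above the highest Biotin-negative one (ratio 1.68, log2 difference 0.67, SE 0.0583, limma adjusted p = 1.02e-05). Hexa, the α subunit of β-hexosaminidase, had 53.5, 48.5 and 51.3 FPKM in Biotin-positive and 47.6, 45.3 and 46.7 FPKM in Biotin-negative libraries. The groups were separated by a narrow margin (limma adjusted p = 0.0207), and the call was lost under 5 of 16 alternatives, including rescaling each library to an equal sum (limma adjusted p = 0.159, in a range up to 0.259). Gusb, β-glucuronidase, averaged 23.7 ± 1.28 FPKM in Biotin-positive and 22.1 ± 0.950 FPKM in Biotin-negative cells and did not pass (SD, n = 3 each; limma adjusted p = 0.113).

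Among the lipid hydrolases 3 of 5 were lower and 0 higher, while 2 did not pass. The share called, 60.0%, was under the 73.9% of all tested genes, of which 36.1% were lower and 37.8% higher. Psap encodes prosaposin, the precursor that is cut into the 4 saposins needed to present sphingolipids to their hydrolases. It had 230.4, 231 and 235 FPKM in Biotin-positive libraries, against 351, 344 and 351 FPKM in Biotin-negative ones. The groups lay far apart (ratio 0.666, log2 difference -0.58, SE 0.0258, limma adjusted p = 1.77e-07). Lipa, the acid lipase that frees cholesterol from lipoproteins, averaged 20.2 ± 0.228 FPKM in Biotin-positive and 29.95 ± 0.999 FPKM in Biotin-negative cells. Smpd1, acid sphingomyelinase, averaged 19.3 ± 0.662 FPKM in Biotin-positive and 27.4 ± 2.13 FPKM in Biotin-negative cells (SD, n = 3 each). Gm2a, the activator protein for ganglioside breakdown, averaged 2.99 ± 0.0799 FPKM in Biotin-positive and 3.18 ± 0.382 FPKM in Biotin-negative cells and did not pass (limma adjusted p = 0.465). Asah1, acid ceramidase, had 6.77, 11.02 and 7.05 FPKM in Biotin-positive and 7.28, 8.10 and 6.22 FPKM in Biotin-negative libraries. Its groups overlapped, 1 Biotin-positive library stood apart from the other 2, and the gene did not pass (log2 difference 0.16, SE 0.162, limma adjusted p = 0.407). Without that library the log2 difference was -0.05.

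The membrane proteins were lower in 3 of 4 cases. Lamp1 and Lamp2 are the heavily glycosylated proteins that line the inner face of the lysosomal membrane. Lamp1 had 255, 250.1 and 243 FPKM in Biotin-positive libraries, against 409, 399.6 and 399.98 FPKM in Biotin-negative ones. The groups were widely separated (ratio 0.619, log2 difference -0.69, SE 0.0292, limma adjusted p = 1.4e-07). Lamp2 was lower by less, with 113, 113 and 109 FPKM in Biotin-positive and 124, 138 and 122 FPKM in Biotin-negative libraries (log2 difference -0.20, SE 0.0482, limma adjusted p = 0.00558). Mcoln1, the calcium channel TRPML1, had 24.96, 25.2 and 26.8 FPKM in Biotin-positive libraries, against 40.5, 40.6 and 39.6 FPKM in Biotin-negative ones (log2 difference -0.63, SE 0.0378, limma adjusted p = 1.06e-06). Scarb2 encodes LIMP-2, which carries β-glucocerebrosidase to the lysosome. It was the exception, at 32.9, 34.1 and 33.2 FPKM in Biotin-positive and 30.4, 30.5 and 29.7 FPKM in Biotin-negative libraries (log2 difference 0.14, SE 0.0330, limma adjusted p = 0.00425).

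The 3 proton pump subunits were split. Higher calls made up 66.7% and lower calls 33.3%, against 37.8% and 36.1% of all tested genes. All 3 were called, against 73.9% of all tested genes. The pump, or V-ATPase, joins a membrane sector, V0, through which protons pass, to a cytosolic sector, V1, which hydrolyses ATP. The V0 subunit Atp6v0d1 had 52.4, 52.5 and 49.6 FPKM in Biotin-positive libraries, against 69.5, 67.1 and 71.2 FPKM in Biotin-negative ones, and was lower (log2 difference -0.42, SE 0.0366, limma adjusted p = 1.05e-05). The V1 subunit Atp6v1h, which couples and regulates the sectors, had 54.8, 52.5 and 51.3 FPKM in Biotin-positive libraries, against 36.9, 34.7 and 37.6 FPKM in Biotin-negative ones. It was higher without overlap (ratio 1.45, log2 difference 0.53, SE 0.0413, limma adjusted p = 5.57e-06). Atp6v1a, the catalytic A subunit, averaged 32.2 ± 0.873 FPKM in Biotin-positive and 29.3 ± 1.33 FPKM in Biotin-negative cells (SD, n = 3 each; limma adjusted p = 0.0192). This call was lost under 5 of 16 alternatives, with an adjusted p of up to 0.145 in limma.

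With the other tested subunits added, 6 of 8 V0 subunits were lower, 1 was higher and 1 did not pass, and the median log2 difference was -0.29. Of 8 V1 subunits 4 were higher, 1 was lower and 3 did not pass, with a median of 0.15. For V1, however, quantile normalization gave 2 higher and 2 lower, and rescaling to an equal sum 3 higher and 2 lower. The share called was 87.5% for V0 and 62.5% for V1, against 73.9% of all tested genes. Of all tested genes 36.1% were lower and 37.8% higher, and their median log2 difference was 0.01. The V0 proton-path subunit Atp6v0a1 averaged 9.16 ± 0.280 FPKM in Biotin-positive and 18.4 ± 0.737 FPKM in Biotin-negative cells, a ratio of 0.497. The V0 subunits Atp6v0e2, with a ratio of 0.619, and Atp6v0b, with 0.773, were lower as well, and Tcirg1 and Atp6v0a2 were lower by less, at 0.861 and 0.905. The small V0 subunit Atp6v0e averaged 71.6 ± 2.94 FPKM in Biotin-positive and 57.8 ± 1.68 FPKM in Biotin-negative cells and was the V0 gene that rose. Of the V1 genes Atp6v1g1 and Atp6v1f rose, with ratios of 1.17 and 1.12, and Atp6v1d fell, with a ratio of 0.865. Copies in other gene models cover 31.5% of the Atp6v1g1 and 25.1% of the Atp6v1f transcript. A difference between the sectors was not tested. The calls of Atp6v0a2 and Atp6v1f were lost under 5 and 1 of the 16 alternatives. Tcirg1, Atp6v0a2 and Atp6v1d were named after their values were seen.

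**Figure D3:**
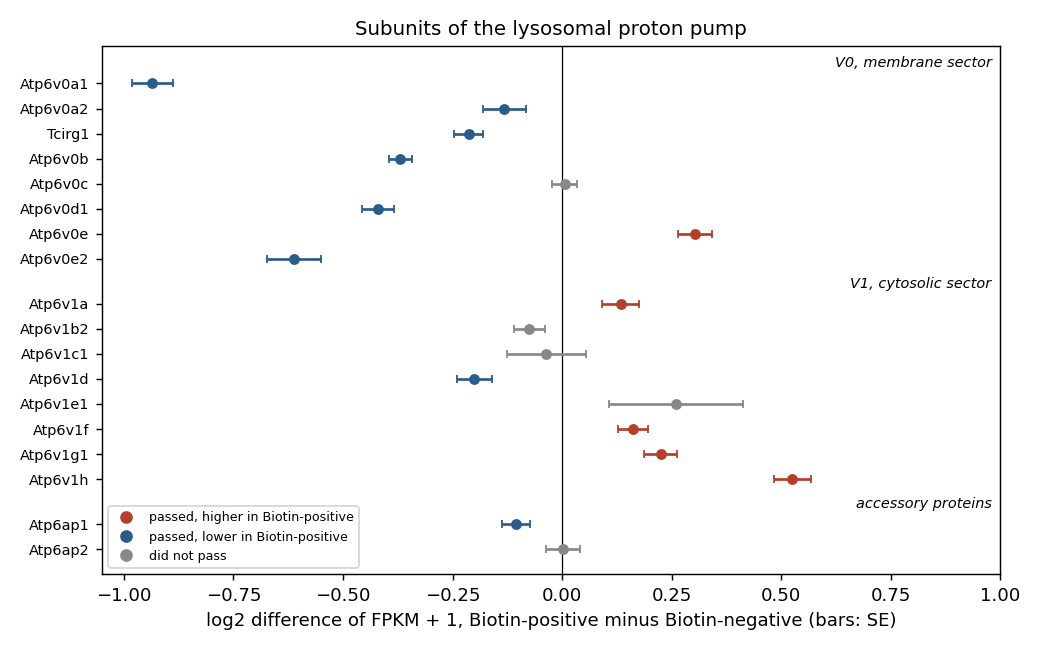
Difference of log2(FPKM + 1), Biotin-positive minus Biotin-negative, for 18 tested genes of the V-ATPase, by sector and with its accessory proteins last, with bars for the SE of limma. Of the 8 V0 genes 6 lie left of 0 and passed, while 4 of the 8 V1 genes lie right of 0 and passed, against 2 after quantile normalization. Of all 11029 tested genes 36.1% were lower and 37.8% higher.

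None of the 3 listed transcription factor genes of the TFEB family passed at an adjusted p of 0.05 in limma, while 73.9% of all tested genes did. Tfeb, whose protein moves to the nucleus when nutrients are scarce, had 3.58, 2.98 and 3.90 FPKM in Biotin-positive and 3.69, 4.56 and 4.64 FPKM in Biotin-negative libraries. The groups overlapped (log2 difference -0.24, SE 0.0993, limma adjusted p = 0.0548), and 4 of 16 alternatives brought the gene past the threshold on the lower side. Tfe3 was the most abundant of the 3, with 14.3 ± 0.967 FPKM in Biotin-positive and 15.2 ± 0.607 FPKM in Biotin-negative cells (SD, n = 3 each; limma adjusted p = 0.200). Mitf averaged 1.39 ± 0.221 FPKM in Biotin-positive and 1.52 ± 0.152 FPKM in Biotin-negative cells (SD, n = 3 each; limma adjusted p = 0.389). RNA levels do not show where these proteins were in the cell.

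A further 153 genes tied to the lysosome, its supply or its regulation, in 6 lists, were read out of the same fit. Of the 133 tested, 67 were lower, 28 were higher and 38 did not pass, with a median log2 difference of -0.12. The share called, 71.4%, was near the 73.9% of all tested genes. Lower calls made up 50.4%, against 36.1% of all tested genes, and higher calls 21.1%, against 37.8%. Of 33 other acid hydrolases 17 were lower, 3 higher and 13 did not pass. The share called, 60.6%, was under the 73.9% of all tested genes, with 51.5% lower and 9.09% higher. Their median log2 difference was -0.17. The largest falls were those of Dpp7, Napsa and Cpq. Dpp7, a dipeptidyl peptidase, averaged 13.8 ± 0.695 FPKM in Biotin-positive and 30.7 ± 0.734 FPKM in Biotin-negative cells. In the same order of groups, Napsa, an aspartic protease, averaged 18.7 and 37.8 FPKM, and Cpq, a carboxypeptidase, 8.64 and 17.4 FPKM. Gm15396, on the other strand, overlaps 18.9% of the Napsa exons. Hyal2, a hyaluronidase, Siae, a sialic acid esterase, and Aga, which cleaves the link between sugar and asparagine, were the 3 that rose, with ratios of 1.43, 1.28 and 1.16. Among other membrane proteins and transporters 19 of 34 were lower, 6 higher and 9 did not pass. The share called, 73.5%, was near that of all tested genes, with 55.9% lower and 17.6% higher. Cln8, an endoplasmic reticulum protein that helps export lysosomal enzymes, had 8.31, 7.92 and 7.44 FPKM in Biotin-positive libraries, against 19.5, 19.1 and 19.7 FPKM in Biotin-negative ones. Laptm4b and the cholesterol exporter Npc1 followed, with ratios of 0.532 and 0.626. Mfsd12, the iron and manganese transporter Slc11a2 and the phosphatase Pip4p1 rose, with ratios of 1.29, 1.19 and 1.17, though genes on the other strand overlap 29.8% of the Mfsd12 and 19.5% of the Pip4p1 exons.

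Of 26 tested genes for delivery to the lysosome 10 were higher, 10 were lower and 6 did not pass. These shares, 38.5% in each direction, were near those of all tested genes, 37.8% higher and 36.1% lower. The receptors for mannose 6-phosphate went opposite ways. Igf2r, the large cation-independent receptor, had 15.0, 14.9 and 15.3 FPKM in Biotin-positive libraries, against 35.8, 33.0 and 35.1 FPKM in Biotin-negative ones (log2 difference -1.15, SE 0.0411, limma adjusted p = 5.74e-08). M6pr, the small cation-dependent receptor, had 64.8, 64.9 and 63.5 FPKM in Biotin-positive libraries, against 37.98, 40.6 and 40.8 FPKM in Biotin-negative ones (log2 difference 0.68, SE 0.0364, limma adjusted p = 5.17e-07). Neither pair of groups overlapped, and M6pr was named after its values were seen. The adaptor subunit Ap1s1 had the largest rise of the list, with 127, 124 and 124 FPKM in Biotin-positive libraries, against 51.5, 50.8 and 52.0 FPKM in Biotin-negative ones. Vps29 of the retromer, which returns sorting receptors from endosomes, rose with a ratio of 1.903, and the adaptor subunit Ap3m1 with 1.73, while the exons of Ap3m1 are overlapped to 29.8% by Vcl on the other strand. Gga2, an adaptor for the receptors, and Ap3s1, which has pseudogene copies for 38.1% of its transcript, fell with ratios of 0.613 and 0.640.

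Cystatins are the natural inhibitors of cysteine cathepsins. Of 8 listed, 5 stayed under the minimum for testing. Of the 3 tested, 1 was higher, 1 was lower and 1, Cst6, did not pass (limma adjusted p = 0.994). The share called was 66.7%, against 73.9% of all tested genes. The cytosolic inhibitor Cstb had 161, 173 and 170.5 FPKM in Biotin-positive libraries, against 106, 117 and 115 FPKM in Biotin-negative ones, and was higher (log2 difference 0.57, SE 0.0442, limma adjusted p = 5.06e-06). The secreted cystatin C gene, Cst3, averaged 159 ± 6.46 FPKM in Biotin-positive and 189 ± 4.13 FPKM in Biotin-negative cells (SD, n = 3 each) and was lower. Of 22 tested regulators of the TFEB family 13 were lower, 5 higher and 4 did not pass. The share called was 81.8%, against 73.9% of all tested genes. Lower calls made up 59.1%, against 36.1%, and higher calls 22.7%, against 37.8%. Most of these regulators belong to the machinery that reports nutrients from the lysosomal surface to the kinase mTOR. Mlst8, a subunit of the mTOR complexes, was at a ratio of 0.536, Rragd, a Rag GTPase, at 0.640, and Ppp3ca, the catalytic subunit of the phosphatase calcineurin that activates TFEB, at 0.664. Bricd5 overlaps 22.5% of the Mlst8 exons on the other strand. Lamtor5, part of the Rag anchor, and the GTPase Rheb rose with ratios of 1.36 and 1.32. Mtor itself averaged 2.32 ± 0.271 FPKM in Biotin-positive and 1.77 ± 0.319 FPKM in Biotin-negative cells; its groups overlapped, and its call (limma adjusted p = 0.0404) was lost under 8 of 16 alternatives.

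**Figure D4:**
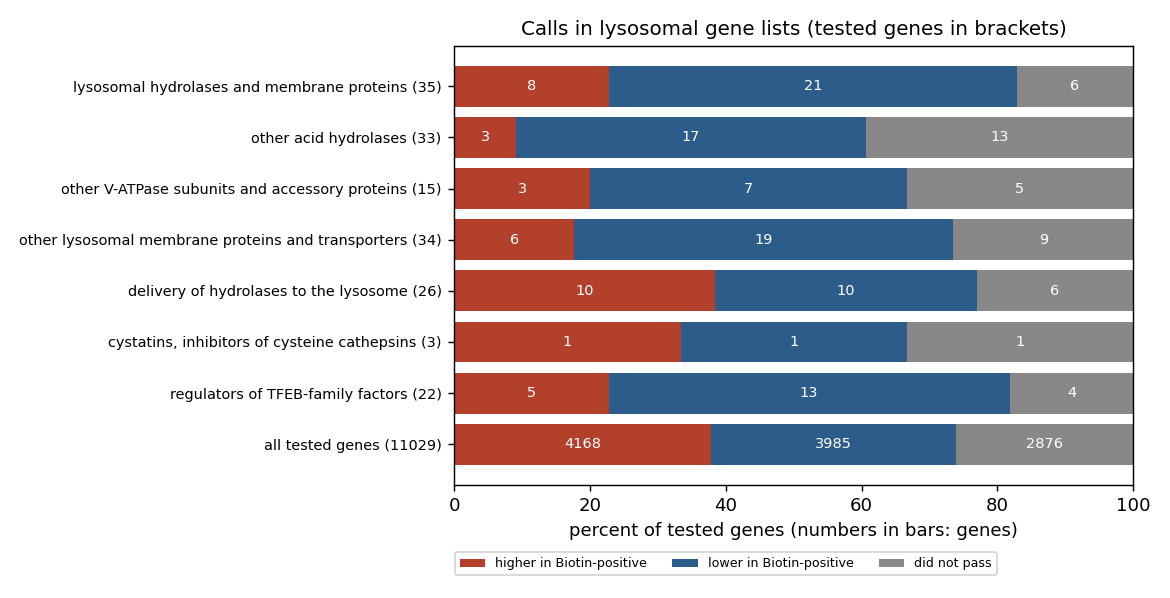
Share of tested genes that were higher in Biotin-positive cells, lower in them or did not pass in limma, for the 35 lysosomal genes, the 6 further lists and all 11029 tested genes; numbers in the bars are genes. The lower share was 60.0% for the lysosomal genes and 36.1% for all tested genes.

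The 6 libraries were alike in overall scale. Their FPKM summed to between 349753 and 356681 in Biotin-positive and between 337771 and 340511 in Biotin-negative cells, and since the table gives no read numbers, depth is unknown. Across genes, Pearson correlations of log2(FPKM + 1) were at least 0.998 for libraries of the same group and at most 0.978 for libraries of different groups. Of 10 fibroblast markers 6 reached 1 FPKM in at least 1 library, the collagen genes and Vim among them, while Thy1, Dcn, Lum and Fap stayed under 0.45 FPKM throughout. Of the 6, Col1a1, Col1a2, Col3a1, Pdgfra and Pdgfrb were lower, with ratios between 0.280 and 0.577, and Vim was higher, at 1418 ± 43.5 FPKM in Biotin-positive and 658 ± 14.04 FPKM in Biotin-negative cells (SD, n = 3 each). Vim thus set the sum of the list, which lay between 1740.1 and 1825 FPKM in Biotin-positive and between 1421 and 1498 FPKM in Biotin-negative libraries. Of 15 epithelial markers 13 stayed under 0.33 FPKM in every library, Epcam and Cdh1 among them. The keratins Krt7 and Krt8 raised the sum of that list to between 45.5 and 47.8 FPKM in Biotin-positive libraries, against 0.684 to 0.818 FPKM in Biotin-negative ones. The part of these marker differences in the lysosomal ones was not tested.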

How the data were processed

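The deposited table holds FPKM values for 6 libraries. Per the submitters' processing notes, the authors used cutadapt 1.9.1, HISAT2 2.2.1 and HTSeq 0.6.1. The program that computed FPKM, its denominator and the strandedness are not given in the sources used here. The notes name GRCm39, but chromosome, start and end in the table equal those of GENCODE vM21, on GRCm38, for 99.1% of 21887 shared identifiers. Printed coordinates are therefore on GRCm38. Low values showed no steps of single reads, so no count test was run and no intervals that need depth are given.

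Groups came from the labels. Testing was limited to genes that reached 1 FPKM in 3 or more libraries, as log2(FPKM + 1), with limma 3.58.1 in R 4.3.3 (eBayes with trend). Tests were two-sided, and p-values were adjusted by Benjamini-Hochberg across the 11029 genes. Fold changes on this scale understate those of low genes; ratios are of mean FPKM. The procedure was tested on simulated data. The genes and lists were chosen with earlier results of these data known. Named from each further list were up to 3 rises and 3 falls with the largest log2 difference. Copies (at least 98% identity over 100 bases) were sought with blastn in GENCODE vM21 transcripts. Python 3.11.15 was used for the rest. Pseudocounts of 0.1 and 0.5, other filters, scalings and variance priors, the replicate number as a block, and leaving out each library were tried.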

Additional observations from a re-analysis of the deposited data

How the results depend on the processing

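Of the 29 lysosomal genes that passed, 27 kept their direction and their call under every one of the 16 alternatives that tested them. Ctsc, whose call was fixed by the minimum for testing, is among the 27. Hexa and Atp6v1a were the exceptions and kept only their direction. The number of lysosomal genes that passed lay between 27 and 30, with 6 to 8 higher and 20 to 22 lower, and all tested genes called numbered between 6592 and 9220. The number tested changed with the filter. Without a filter on low values 30 of 37 lysosomal genes passed, and 9220 of all 17058 genes. With a filter of 5 FPKM in 3 libraries 27 of 30 passed, and 6592 of all 8577. Leaving out 1 library at a time gave 27 to 29 lysosomal genes, 6 to 8 of them higher and 21 to 22 lower, and all tested genes called numbered 7690 to 7878. Asah1, which did not pass, had a log2 difference between -0.04573, without Biotin-positive replicate 2, and 0.269 when 1 library at a time was left out; the cause was not tested. Tfeb passed under 4 alternatives, on the lower side. Of the V1 subunits of the proton pump, 2 were higher and 2 lower after quantile normalization, and 3 were higher and 2 lower after rescaling to an equal sum, against 4 higher and 1 lower as deposited. No scaling moved the median log2 difference of all genes by more than 0.0548.

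Whether equal replicate numbers pair the libraries is not recorded. With the replicate number as a block, 29 lysosomal genes passed, 8 higher and 21 lower, and all tested genes called numbered 8040. Correlations of deviations between libraries of equal number lay between 0.012 and 0.0371, and 1 of the 3 Biotin-positive libraries correlated best with another number. Correlations this small cannot settle whether equal numbers form pairs.

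With 3 libraries a group and unknown depth, genes near 1 FPKM such as Mitf, Ctsc and Ctso rest on values whose counting error cannot be given.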
